A study of Mus musculus with 6 samples.

Results

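Secretory and cell-surface genes around TGF-β withdrawal were followed in NMuMG, an immortal line of mouse mammary epithelium. The 8 genes are Vnn1, Cp, Selenop, Enpep, Sult1c2, Xdh, Aqp5 and Pamr1, of 18193 genes measured. They were chosen by their expression values in these same arrays, which differed strongly around withdrawal, so their levels and differences are given as description, with no test. Each was matched by its annotated symbol, and the brightest of its probe sets (the groups of short probes that report a transcript) over all 6 arrays was used. Vnn1 has 2 probe sets, Cp has 8, and the other genes have 1 each.

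RNA came from 3 groups of 2 Affymetrix arrays each. The withdrawal group received 4 ng/ml TGF-β for 11 days and was then kept without it for another 13 days. The TGF-β group received 4 ng/ml for 11 days, and the control group received vehicle. All groups are the same cell line in serum-containing medium with insulin, and no genetic change is named in the labels. Withdrawal also means more days in culture than TGF-β alone, so the passage of time and the removal of the cytokine cannot be told apart. The sample titles give no time in culture for the controls, so withdrawal and control may differ in time as well. Nothing in the labels ties the paired arrays to separate cultures, and p-values therefore reflect the spread among these samples alone, which may be technical. The description entries name the withdrawal samples as in the epithelial to mesenchymal transition and the TGF-β samples as in the reverse one, and the groups here follow the titles and treatment entries.

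TGF-β drives epithelial cells towards a mesenchymal state, in which junction, apical and secretory genes are commonly turned down, and its removal can let cells return. The apical face of transporting epithelia carries a brush border of microvilli studded with ectoenzymes, while the secretory route releases plasma carriers from the liver and milk from the mammary gland. Vnn1 encodes a membrane-anchored pantetheinase that recycles the coenzyme A precursor pantothenate, and Enpep encodes aminopeptidase A, which trims angiotensin II at the cell surface. Cp encodes ceruloplasmin, the copper-carrying ferroxidase of plasma, and Selenop encodes selenoprotein P, the plasma carrier of selenium. Aqp5 is the apical water channel of secretory glands, and Pamr1 encodes a secreted protein with a protease-like domain. Sult1c2 and Xdh, a sulfotransferase and the enzyme of the last steps of purine breakdown, are cytosolic. The name of the group does not describe Sult1c2, while Xdh also has a part in the release of milk fat.

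RefSeq promoter windows of build GRCm38.p6, 250 bases before to 50 after a transcription start, matched 5 of the 8 genes, with 8 windows. Of these, 5 are shown, those of Selenop and Cp being the windows with a TATAAA match, to set the genes that were lost and regained (Selenop, Cp, Sult1c2) beside genes that were higher only after withdrawal (Enpep, Aqp5). Capitals mark matches, on either strand, to TATAAA, to GTTAAT (part of the site of the liver factor HNF1), to TGANTCA (the AP-1 site) or to CACCTG (an E-box read by Snail and Zeb repressors).
Selenop, chr15:3270727-3271026, plus strand: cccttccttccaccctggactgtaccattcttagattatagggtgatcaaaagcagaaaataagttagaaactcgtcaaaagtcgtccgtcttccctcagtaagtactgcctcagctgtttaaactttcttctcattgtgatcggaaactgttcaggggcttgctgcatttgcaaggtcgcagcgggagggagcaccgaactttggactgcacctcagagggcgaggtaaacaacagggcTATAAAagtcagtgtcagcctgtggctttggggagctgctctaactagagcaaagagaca
Cp, chr3:19956999-19957298, plus strand: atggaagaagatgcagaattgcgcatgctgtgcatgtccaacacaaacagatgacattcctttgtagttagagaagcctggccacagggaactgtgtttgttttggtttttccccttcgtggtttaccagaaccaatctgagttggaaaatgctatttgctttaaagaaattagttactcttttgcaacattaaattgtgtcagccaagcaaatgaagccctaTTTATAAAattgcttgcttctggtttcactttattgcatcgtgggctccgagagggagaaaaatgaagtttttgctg
Sult1c2, chr17:53845909-53846208, minus strand: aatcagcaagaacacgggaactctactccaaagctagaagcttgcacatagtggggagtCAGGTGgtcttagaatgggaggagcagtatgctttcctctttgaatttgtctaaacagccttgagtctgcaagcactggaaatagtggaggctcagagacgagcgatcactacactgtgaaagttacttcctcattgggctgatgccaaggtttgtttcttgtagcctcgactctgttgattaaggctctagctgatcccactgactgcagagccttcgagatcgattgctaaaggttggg
Enpep, chr3:129332700-129332999, minus strand: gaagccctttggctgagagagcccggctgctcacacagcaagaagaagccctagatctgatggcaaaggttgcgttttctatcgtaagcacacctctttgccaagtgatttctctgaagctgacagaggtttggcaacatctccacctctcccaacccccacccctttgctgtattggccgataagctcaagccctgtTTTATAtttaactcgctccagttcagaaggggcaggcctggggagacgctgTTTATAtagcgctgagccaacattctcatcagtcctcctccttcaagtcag
Aqp5, chr15:99590778-99591077, plus strand: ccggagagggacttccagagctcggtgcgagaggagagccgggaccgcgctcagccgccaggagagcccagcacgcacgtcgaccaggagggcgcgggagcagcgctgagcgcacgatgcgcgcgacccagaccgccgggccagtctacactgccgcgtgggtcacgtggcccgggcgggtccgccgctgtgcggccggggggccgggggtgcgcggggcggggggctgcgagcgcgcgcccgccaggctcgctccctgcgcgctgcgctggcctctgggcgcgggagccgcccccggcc

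The Selenop window has a TATAAA match at -10 to -5, counted from 0 at the start, and the Cp window has overlapping matches on both strands, at -27 to -22 and -25 to -20. Enpep has the same motif on the other strand at -52 to -47 and at -1 to 4. Sult1c2 has the E-box on the other strand at -191 to -186, and another Selenop window also holds this E-box. The Aqp5 window has no match and a GC content of 79.7%, against a median of 52.7% over all windows and 40% in the Cp window shown. Among all 32851 windows of this length, 13.6% hold TATAAA, 20.2% CACCTG, 7.10% GTTAAT and 7.81% TGANTCA. The last pair of motifs was found in the other Cp window only. A match is a description of letters, not of a bound site.

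The genes fell into a pair of patterns. Vnn1, Cp, Selenop and Sult1c2 were lost under TGF-β and regained on withdrawal, meaning at least 1 lower than control under TGF-β and at least 1 higher than TGF-β on withdrawal, on the log2 scale of RMA values. Enpep, Xdh, Aqp5 and Pamr1 were higher only after withdrawal. This means at least 1 above both other groups, with TGF-β less than 1 below control. In these genes TGF-β minus control was -0.11 to -0.04. All 8 ended above control, 7 of them by at least 1, or 6 with hybridization spike scaling, where Selenop was 0.86 above it. The same definitions fit 252 genes (1.39%) and 436 genes (2.40%) of all 18193. The latter definition sets no upper limit on TGF-β. It therefore also takes genes that rose under TGF-β, such as Pcolce, 1.20 above control there. The choice of members fixes these patterns, so nothing is read from the contrast with the background.

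**Figure D1:**
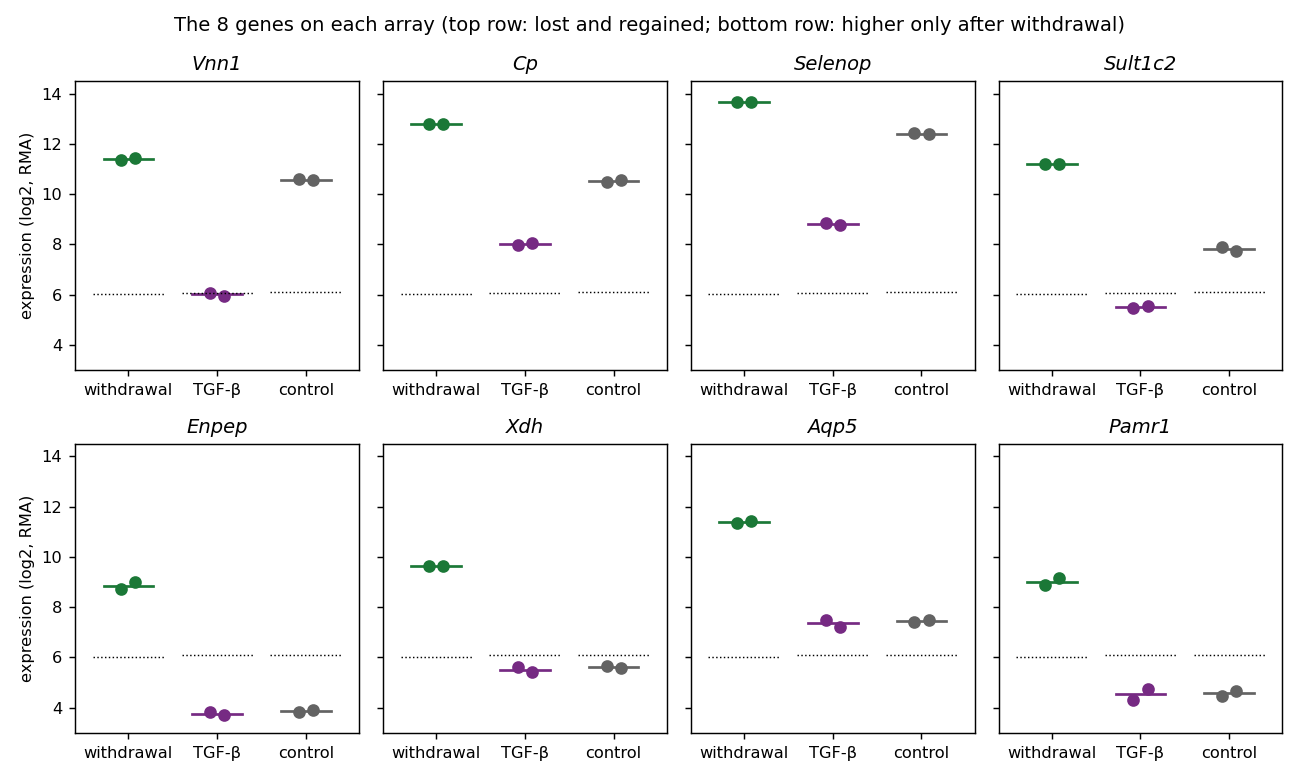
Expression (log2, RMA) of the 8 genes on each array, a point per array and a bar at the group mean of 2 arrays, with the 95th percentile of 73 sensory receptor genes dotted. Withdrawal arrays are the highest for every gene, and TGF-β arrays lie below control in the top row only.

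Vnn1 was high in withdrawn and control cells and low under TGF-β. Its log2 level was 11.36 and 11.42 on the withdrawal arrays, 6.07 and 5.97 on the TGF-β arrays, and 10.60 and 10.56 on the control arrays. The 3 groups did not overlap, and the TGF-β arrays stood far below both others. TGF-β minus control was -4.56 ± 0.059 (log2 difference ± SE of the limma fit, n = 2 arrays a group), a level 23.7-fold below control. On withdrawal it was 5.37 above TGF-β, a 41.4-fold difference, and 0.81 above control. Its other probe set gave -4.51, 5.30 and 0.79 for the same 3 differences. The excess over control was 0.43 when arrays were scaled to hybridization spikes, and 0.81 without that scaling.

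Selenop followed the same course. It read 13.66 and 13.65 on the withdrawal arrays, 8.85 and 8.78 under TGF-β, and 12.43 and 12.40 in control. Control and withdrawal arrays were both high and did not overlap. The difference was -3.60 ± 0.052 for TGF-β against control, 4.84 for withdrawal against TGF-β and 1.24 for withdrawal against control, which corresponds to 12.1-fold lower, 28.7-fold higher and 2.36-fold higher. The Selenop locus overlaps Ccdc152 in the RefSeq gene table, and its single probe set is of the kind (name ending in a) that matches several transcripts.

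Cp lay closer to control under TGF-β than Selenop did, and farther above it on withdrawal than Vnn1 and Selenop. The values were 12.79 on both withdrawal arrays, 8.0 and 8.07 under TGF-β, and 10.5 and 10.56 in control. No array of any group reached into another group's range. TGF-β minus control was -2.5 ± 0.055, and withdrawal stood 4.76 above TGF-β and 2.26 above control, or 4.78-fold. All 8 probe sets of Cp were lower under TGF-β than in control on non-overlapping arrays, by -0.31 to -2.59, and higher on withdrawal than under TGF-β, by 1.73 to 5.0. The smallest loss, -0.31, came from a probe set that read 7.49 on withdrawal, 5.19 under TGF-β and 5.49 in control. Cp overlaps Hps3 in the gene table.

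**Figure D2:**
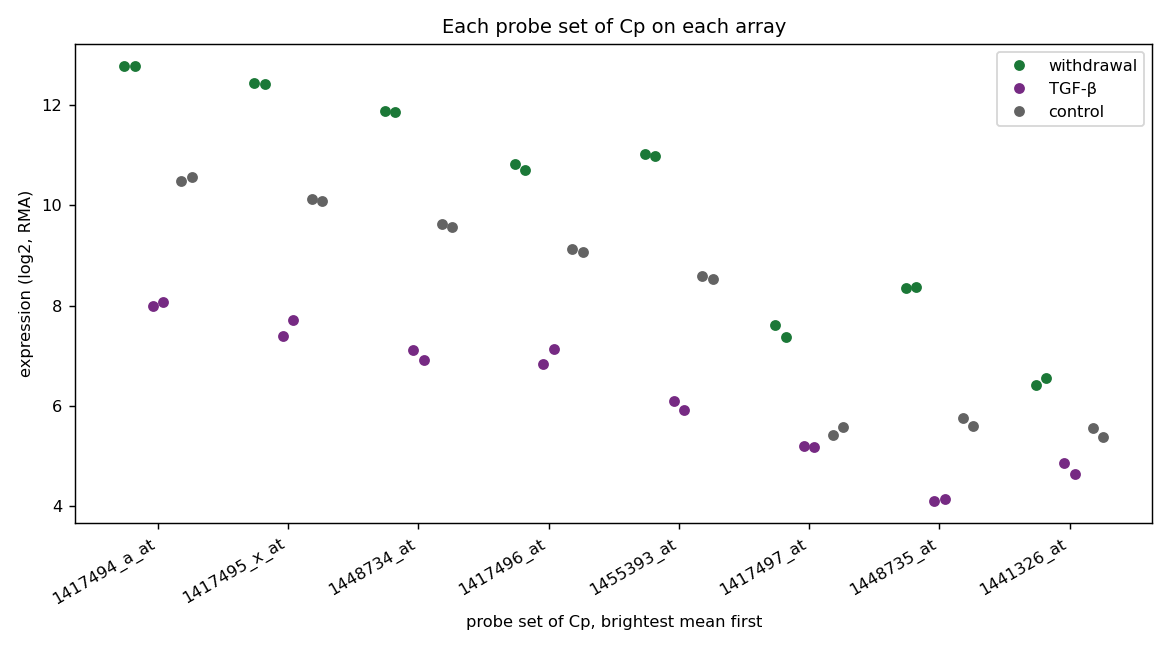
Each of the 8 probe sets of Cp (x axis) on each array (y axis, log2 RMA expression), a point per array and a colour per group. Withdrawal is the highest and TGF-β the lowest in every set, and the narrowest gap between those of TGF-β and control is 5.19 against 5.49.

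Sult1c2 transfers sulfate onto small molecules in the cytosol. Its arrays read 11.19 and 11.20 on withdrawal, 5.46 and 5.54 under TGF-β and 7.88 and 7.75 in control. The withdrawal arrays were far above control, and TGF-β arrays far below. Sult1c2 differed by -2.32 ± 0.065 between TGF-β and control (4.98-fold lower) and stood 5.70 above TGF-β (51.9-fold) and 3.38 above control (10.4-fold) on withdrawal. Of the 4 lost and regained genes it ended farthest above control.

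Enpep, Xdh, Aqp5 and Pamr1 showed no separation of TGF-β from control. Enpep read 8.72 and 9.0 on the withdrawal arrays, 3.84 and 3.70 under TGF-β, and 3.83 and 3.91 in control. The TGF-β and control arrays overlapped, and only the withdrawal arrays were high. Its withdrawal level was 5.09 ± 0.11 above TGF-β and 4.99 above control, both baselines being at the array's background by the yardstick of receptor genes used for low values.

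Pamr1 was 8.87 and 9.16 on withdrawal, 4.32 and 4.74 under TGF-β, and 4.45 and 4.69 in control. Its spread within a group was the widest of the 8, with an SD of 0.30 under TGF-β. The TGF-β and control arrays overlapped and the withdrawal arrays were far above both. Withdrawal stood 4.48 ± 0.17 above TGF-β and 4.45 above control, while TGF-β minus control was -0.04.

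Xdh read 9.63 and 9.66 on withdrawal, 5.6 and 5.44 under TGF-β and 5.67 and 5.58 in control. Aqp5 read 11.34 and 11.42 on withdrawal, 7.49 and 7.22 under TGF-β and 7.42 and 7.48 in control. In both genes the TGF-β and control arrays overlapped and both withdrawal arrays were higher. Xdh was 4.12 ± 0.072 above TGF-β and 4.01 above control, and Aqp5 4.02 ± 0.096 and 3.93. Over the 6 arrays, each gene centred on its control mean, the Xdh and Aqp5 profiles lay 0.18 apart (Euclidean distance, log2), the closest pair among the 8, and Vnn1 and Enpep lay 8.65 apart, the farthest. These distances include Xdh, Enpep and Vnn1 levels not separated from background, so no order among the genes is read from them. Xdh overlaps Gm18068, and Aqp5 overlaps Gm34765, in the gene table.

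No detection calls were used, and low RMA values are compressed, so a small level is not separated from no expression and a difference from it is understated. As a yardstick, 73 odour, pheromone and taste receptor genes, taken to be silent here, had a 95th percentile of 6.02 on withdrawal, 6.09 under TGF-β and 6.10 in control. Enpep, Xdh and Pamr1 lay below that level under TGF-β and in control, and all 8 lay above it on withdrawal. Under TGF-β, Vnn1 and Sult1c2 also lay below it. Differences and folds taken from such levels rest on values not separated from background, and no order among the genes is read from them. Aqp5 was above it in every group, so it did not first appear on withdrawal by this yardstick.

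Setting the genes against the whole array gives their size. At a log2 change of at least 1 with non-overlapping arrays, 4 of the 8 were lower under TGF-β than in control, where 2.58% of all genes were. All 8 were higher on withdrawal than under TGF-β, where 4.8% were, and 7 were higher on withdrawal than in control, where 5.06% were. These contrasts chose the genes, so the counts describe the choice. The TGF-β arrays are in both of the contrasts that give loss and regain, and the control arrays are in both of those that give loss and excess, so the differences within a gene share arrays.

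**Figure D3:**
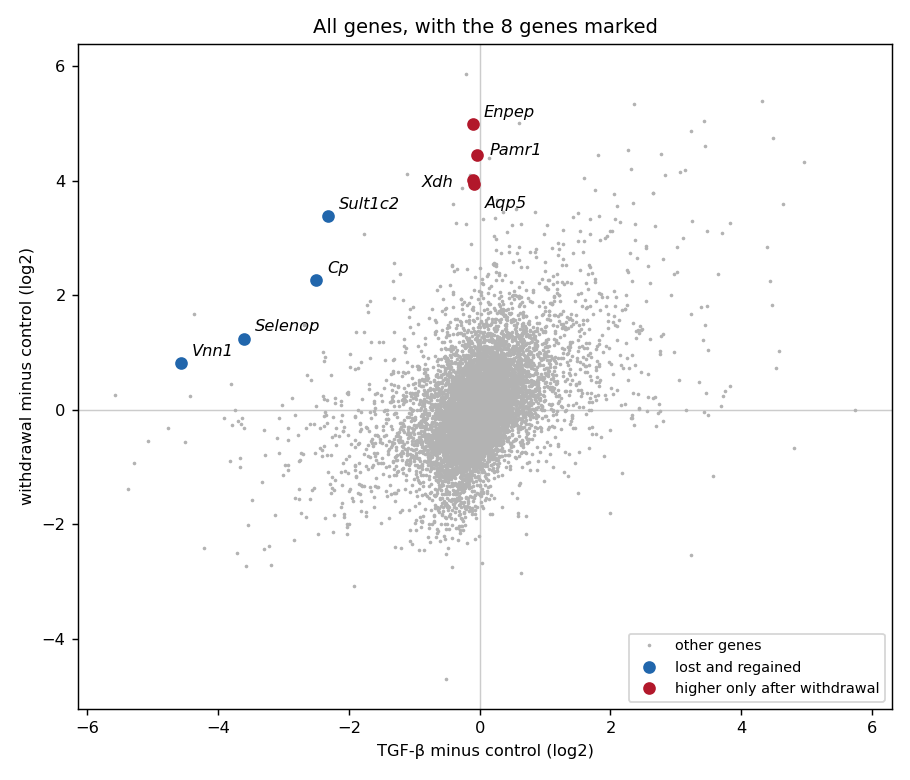
Log2 difference of TGF-β from control (x) and of withdrawal from control (y) for all 18193 genes, a grey point each, with the 8 genes coloured by pattern. Vnn1, Selenop, Cp and Sult1c2 lie to the left, between -4.56 and -2.32 on x, and the other 4 lie near 0 on x and between 3.93 and 4.99 on y; both axes use the control arrays.

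For the genes of like pattern, the 3 nearest to each member were taken over the 6 arrays, by Euclidean distance after centring each gene on its control mean, among 16313 genes with ordinary names. Plin4, which encodes a lipid droplet coat protein, lay 0.24 from Xdh and 0.30 from Aqp5. C1s1, a complement protease gene, lay 0.47 from Xdh, and Egr1, an immediate early transcription factor gene, 0.47 from Pamr1 and 0.94 from Enpep. Vnn1 was nearest to Akr1c19, an aldo-keto reductase gene, at 0.86, and Sult1c2 to Ms4a4b at 0.91. Outside the 8, the nearest gene to Cp was Ppargc1a at 1.17, and the nearest to Selenop was Mmp13 at 1.23. Plin4 and C1s1 lay below the receptor yardstick under TGF-β and in control, and Akr1c19, Mmp13 and Ppargc1a lay below it under TGF-β. Their distances rest in part on values not separated from background. Distances are description only and say nothing of shared control.

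Gene lists around each member were tested over all genes with limma and Benjamini-Hochberg adjustment at 0.05. Across the whole array the higher share was 15.0% and the lower share 17.5% for TGF-β against control, 21.8% and 22.1% on withdrawal against TGF-β, and 21.7% and 23.6% on withdrawal against control, and the medians of the 3 differences were -0.01, -0.03 and -0.04. Some list genes lay below the receptor yardstick in part of the groups. Under TGF-β this held for Vil1, Hpx, Serpina1b, Serpina1c, Atp7b, Sult2b1, Alb and Ocln. It held for Mme, Aox1 and C1s1 under TGF-β and in control, for Papss2 on withdrawal and in control, and for Ampd3 in control. Krt7 lay below it on withdrawal. Differences taken from such levels rest on values not separated from background.

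Brush-border genes other than the members moved both ways, with shares called near those of the whole array. Of 32 measured, 3 were higher and 7 lower under TGF-β, 8 higher and 5 lower on withdrawal against TGF-β, and the medians were -0.06 and -0.04. Vil1 and Eps8, which bundle and cap actin in microvilli, and Ezr, which ties that actin to the membrane, all fell under TGF-β, with differences of -2.53 ± 0.10, -3.28 ± 0.054 and -1.73 ± 0.058 (SE), and rose by 2.28, 2.48 and 1.44 on withdrawal. Another probe set of Ezr gave -0.16 and 0.21. Other actin-linked genes of the list did not pass, with Espn at 0.04 and -0.05 and Myo1a at -0.16 and 0.16 in the same comparisons. On withdrawal Eps8 was below control, by -0.80 (adjusted p = 8.09e-05). The cell-surface peptidase gene Mme averaged 7.43 ± 0.055 on withdrawal, 3.85 ± 0.054 under TGF-β and 5.07 ± 0.04 in control (SD, n = 2), and it rose by 3.58 on withdrawal against TGF-β (adjusted p = 1.53e-06) and by 2.36 against control. A dimmer probe set of Mme gave 0.86 for the first of these. The aminopeptidase gene Anpep did not pass in any comparison, at 0.52 on withdrawal against TGF-β (adjusted p = 0.0634), nor did the peptidase gene Dpp4, at -0.12.

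Part of the plasma protein genes fell under TGF-β, 22.9% against 17.5% of all genes, and more of them rose on withdrawal. On withdrawal against TGF-β, 21.8% of all genes were higher and 22.1% lower. Of 35 measured, 0 were higher and 8 lower under TGF-β in limma's test (0 and 11 at an unadjusted p under 0.05, median -0.08), 14 higher and 1 lower on withdrawal against TGF-β (median 0.13), and 10 higher and 4 lower on withdrawal against control. Rbp4, the plasma carrier of retinol, averaged 11.97 on withdrawal, 7.46 under TGF-β and 12.53 in control, and Hpx, which binds free haem, 9.35, 5.59 and 9.50. Neither ended above control, with Rbp4 at -0.55 (adjusted p = 9.51e-04) and Hpx at -0.15 (adjusted p = 0.0511). Serpina1b and Serpina1c, protease inhibitor genes of a nearly identical family whose members the probes may not separate, did end above it, at 1.67 and 4.12.

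Of the hepatocyte markers the withdrawal arrays held 6 of 12 above the receptor level, against 5 under TGF-β and 6 in control. Their summed level, on the log2 scale, was 12.39 to 12.41 on withdrawal, 10.93 under TGF-β and 11.80 to 11.81 in control. Alb, at 9.54 on withdrawal, 5.93 under TGF-β and 6.29 in control, and Ttr, at 9.58, 7.35 and 7.64, were higher on withdrawal, as were Apoa1 and Serpina1c. Apob averaged 10.22 on withdrawal, 10.30 under TGF-β and 10.90 in control, was not regained (-0.09, adjusted p = 0.217) and ended below control, as did Hnf4a. Tat, Cps1, Asgr1 and Cyp3a11 stayed below the receptor level in every group. Summed macrophage and leukocyte markers were 11.72 to 11.77, 10.28 to 10.32 and 11.61 to 11.62 in the same order of groups, mostly Cd14. Of 10 measured, 5, 3 and 4 lay above the receptor level. Csf1r, Cd14 and Cd3e did so in every group, Mrc1 on withdrawal and in control, and Cd68 on withdrawal only. Ptprc, Adgre1, Itgam, Lyz2 and Tyrobp lay below that level in every group. On withdrawal against TGF-β, 3 were higher in limma's test (Cd68, Cd14 and Mrc1) and 0 lower. Intestinal markers had 1 of 10, 1 of 10 and 2 of 10 above it, with Lct, Fabp1, Fabp2 and Cdx1 below it throughout. Kidney tubule markers had 3 of 10, lung and salivary markers 3, 2 and 2 of 10, endothelial markers 1 of 8, and fibroblast markers 4, 5 and 2 of 9 above that level in withdrawal, TGF-β and control. The mammary epithelial markers had 8, 8 and 9 of 12 above that level, with Cldn7, Ehf and Esrp1 below it throughout. Among these 12, 0 were higher and 7 lower under TGF-β in limma's test (1 and 7 at an unadjusted p under 0.05), and 3 were higher and 4 lower on withdrawal against TGF-β. The 3 were Cdh1, the adhesion molecule E-cadherin, Krt19, a keratin, and Ocln, a tight junction protein, which moved with the lost and regained genes. Cdh1 averaged 11.80 on withdrawal, 8.31 under TGF-β and 11.94 in control, Krt19 averaged 11.98, 9.05 and 12.86, and Ocln averaged 7.89, 4.96 and 8.25. None of these 3 ended above control. Of the 4 lower on withdrawal, Krt7 differed by -4.18, and Epcam, Krt8 and Ehf by less. The part of any other cell type in the 8 genes' levels was not tested, and in bulk RNA fewer cells of a type and less RNA per cell cannot be told apart.

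Most of the copper and iron genes beside Cp rose on withdrawal. Of 11 measured, 1 was higher and 2 lower under TGF-β, and 7 were higher and 0 lower on withdrawal against TGF-β (also 7 and 0 at an unadjusted p under 0.05 in limma, median 0.39), with 7 higher and 1 lower against control. Slc40a1, the iron exporter whose iron ceruloplasmin oxidises, averaged 10.79 ± 0.09 on withdrawal, 7.67 ± 0.088 under TGF-β and 9.44 ± 0.03 in control, fell by 1.77 under TGF-β, and rose by 3.12 on withdrawal (adjusted p = 3.42e-06), ending 1.35 above control. The copper pump gene Atp7b, which loads copper onto ceruloplasmin, changed by -1.13 and 1.44, though its other probe sets, at levels of 4.29 to 5.41, gave 0.03 and 0.03 for the fall and -0.01 and -0.06 for the rise. Heph, the membrane-bound relative of ceruloplasmin, stayed at 3.15 to 3.23 and did not pass.

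Selenium genes beside Selenop moved both ways. Of 30 measured, 8 were higher and 10 lower under TGF-β, 8 higher and 13 lower on withdrawal against TGF-β, and 9 higher and 12 lower against control. Lrp8, a receptor that takes up selenoprotein P, averaged 6.51 ± 0.017 on withdrawal, 8.05 ± 0.14 under TGF-β and 8.26 ± 0.0086 in control, and fell by 1.54 on withdrawal against TGF-β (adjusted p = 2.88e-05). Selenoh and Selenom, which encode small selenoproteins, differed by -1.54 and -1.24 in the same comparison, and Selenoo rose by 1.18. Dimmer probe sets of Lrp8 gave -0.90 and -0.34. The TGF-β differences of Lrp8, Selenoh and Selenom did not pass (adjusted p = 0.101, 0.22 and 0.187).

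Sulfotransferase and sulfate donor genes beside Sult1c2 numbered 14, of which 1 was higher and 5 lower under TGF-β, and 4 higher and 1 lower on withdrawal against TGF-β. Sult2b1, a sterol sulfotransferase gene, fell by 2.41 under TGF-β and rose by 1.60 on withdrawal but ended at -0.81 from control. Papss2, which makes the sulfate donor, moved the other way, by 2.66 and -2.45 (adjusted p = 1.08e-05 and 1.21e-05), while its dimmest probe set gave -0.15 and 0.01. The sulfate carrier gene Slc26a2 fell by 1.68 and rose by 1.64, and Sult1c1 stayed at 3.54 to 3.66 and did not pass.

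Xdh is a molybdenum enzyme, and its near relative Aox1, an aldehyde oxidase gene, also rose on withdrawal. Aox1 averaged 7.41 ± 0.038 on withdrawal, 5.13 ± 0.04 under TGF-β and 4.87 ± 0.054 in control, with a TGF-β difference of 0.26 that turned to -0.0314 with poly-A scaling, and a rise of 2.28 over TGF-β (adjusted p = 4.43e-06) and 2.54 over control. The purine and cofactor list of 20 had 6 higher and 6 lower under TGF-β, and 2 higher and 6 lower on withdrawal against TGF-β. Ada, which acts earlier in purine breakdown, fell by 1.27 on withdrawal, and Ampd3 rose by 1.93 under TGF-β and did not pass on withdrawal against TGF-β (-0.12, adjusted p = 0.402).

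Xdh also takes part in the release of milk fat, and most milk genes around it did not pass. Of 24 measured, 2 were higher and 2 lower under TGF-β, and 4 higher and 1 lower on withdrawal against TGF-β. The casein gene Csn2 stayed at 3.92 to 4.01 and Btn1a1, the partner of Xdh on the fat droplet, at 4.34 to 4.4, and neither passed. Stat5a, a transducer of prolactin signals, rose by 1.13 on withdrawal (adjusted p = 3.86e-05), and the mucin gene Muc1 fell by 3.69 and rose by 3.49. Of 11 aquaporins other than Aqp5, 0 were higher and 1 lower under TGF-β in limma's test (0 and 1 at an unadjusted p under 0.05), and 1 was higher and 1 lower on withdrawal against TGF-β. Aqp1, a water channel of kidney and endothelium, rose by 0.37 (adjusted p = 0.026). It averaged 5.89 on withdrawal, 5.52 under TGF-β and 5.30 in control, below the receptor level in every group, so this difference is not separated from background.

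Genes encoding CUB-domain proteins were listed for Pamr1. Of 13 measured, 4 were higher and 1 lower under TGF-β, and 4 higher and 3 lower on withdrawal against TGF-β. C1s1 and C1ra, the complement proteases, did not pass under TGF-β and rose by 4.14 and 3.45 on withdrawal (adjusted p = 5.14e-06 and 2.68e-06), to end 3.88 and 3.25 above control. The procollagen enhancer gene Pcolce rose at both steps, by 1.20 and 1.71, and Pcolce2 rose by 2.32 and fell by 2.41. Coenzyme A genes were listed for Vnn1. Of 11 measured, 0 were higher and 6 lower under TGF-β in limma's test (1 and 6 at an unadjusted p under 0.05), and 3 higher and 2 lower on withdrawal against TGF-β. Pank1, which makes the first committed step of coenzyme A synthesis, fell by 1.39 under TGF-β and fell by 0.51 more on withdrawal. Its dimmer probe sets gave -1.39, -0.20 and -0.67 under TGF-β, then -0.24, 0.02 and 0.06 on withdrawal. Btd, a vanin relative that recycles biotin, rose by 0.94 on withdrawal, and Vnn3 stayed at 6.14 to 6.29 and did not pass.

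Transcription factors of liver and intestine fell more often than they rose under TGF-β. Of 24 measured, 3 were higher and 11 lower under TGF-β (median -0.20), 12 higher and 0 lower on withdrawal against TGF-β in limma's test (13 and 1 at an unadjusted p under 0.05, median 0.36), and 7 higher and 8 lower against control. Hnf4a, a nuclear receptor of hepatocytes and enterocytes, averaged 9.65 ± 0.033 on withdrawal, 7.04 ± 0.042 under TGF-β and 9.97 ± 0.057 in control (SD, n = 2), with differences of -2.93 and 2.61 (adjusted p = 2.4e-06 and 3.15e-06). Foxa2 fell by 2.69 and rose by 1.92, and Gata6 fell by 1.71 and rose by 1.08, each ending below control. The weakest probe sets of Hnf4a and Gata6 gave -0.32 and -0.21 under TGF-β, then 0.31 and -0.05 on withdrawal. Onecut2 fell by 0.84, rose by 2.09 and ended 1.26 above control.

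**Figure D4:**
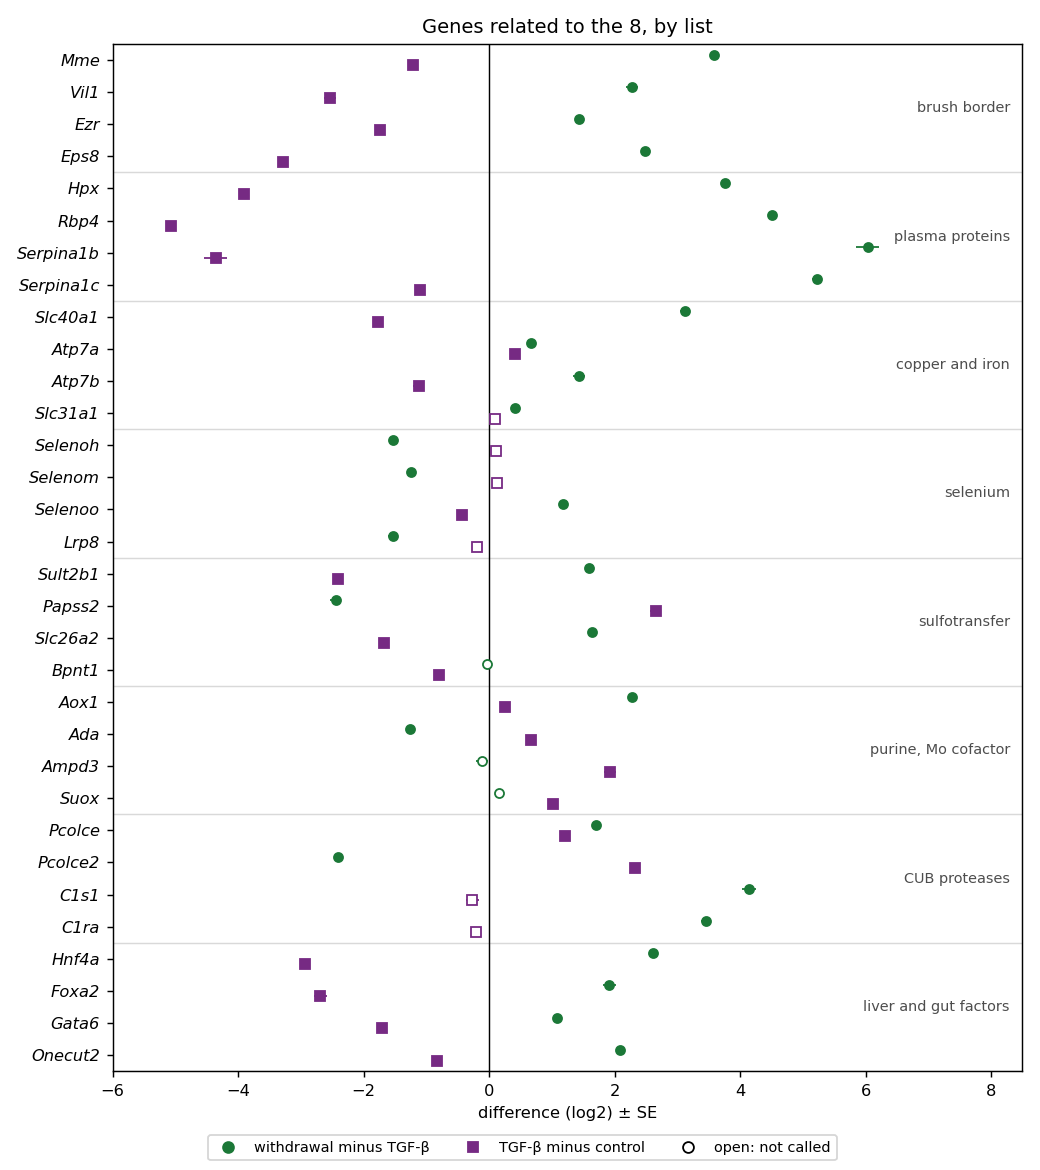
Log2 difference ± SE for the genes named from 8 of the lists, with withdrawal minus TGF-β as circles and TGF-β minus control as squares, filled where the adjusted p is below 0.05. The plasma protein, brush-border and liver factor genes named lie on opposite sides of 0 in the 2 comparisons, while C1s1, C1ra and Aox1 lie far to the right on withdrawal alone.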

How the data were processed

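RNA of 6 arrays in 3 groups was measured on 1-colour Affymetrix arrays. The values were deposited as log2 expression, and RMA is named per the submitters' processing notes; its software is not stated in the labels. RMA sets arrays to a common distribution (array medians 5.77 to 5.79), which removes a shift shared by all genes. Of 45101 probe sets, 34945 had 1 gene symbol, 932 several and 9160 none, and the 64 controls were not compared. Per gene (18193), the brightest probe set over all arrays was used.

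All 6 arrays entered 1 fit per gene (limma 3.58.1, lmFit and eBayes, R 4.3.3), with no covariates and Benjamini-Hochberg adjustment over all genes at 0.05. The fit was tested on simulated data. With 2 arrays a group, the number of arrays limits precision (median SE of a difference 0.0701). Arrays of a group correlated at 0.998 and arrays of different groups at 0.974 to 0.981. The 8 genes and the gene lists were chosen with earlier results of these data known. Genes named from a list are up to 4 called ones with the largest difference whose highest group mean exceeded the median of all genes. Anpep, Dpp4, Espn, Myo1a, Heph, Sult1c1, Csn2, Btn1a1, Aqp1 and Vnn3 fall outside this rule and were chosen after their values were seen. Promoter sequences are from RefSeq.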

Additional observations from a re-analysis of the deposited data

How the results depend on the processing

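Alternatives were a replicate block, a trended spread, no dim genes (lowest 40% by mean), averaged probe sets, no x, s or a probe sets, cyclic loess, poly-A or hybridization spike scaling, a fit to the 4 arrays compared, and leaving out each array. Genes called numbered 5901 for TGF-β against control, 7983 for withdrawal against TGF-β and 8235 for withdrawal against control, and 5519, 7688 and 7908 with the replicate block. Same-numbered arrays of different groups did not deviate together (r = -0.016 to 0.0067 across genes), so they share only a number. With poly-A scaling, 5006 genes were called on withdrawal against TGF-β (3506 higher, 1500 lower; 3960 and 4023 without it). With hybridization spike scaling, 14289 were called on withdrawal against control (1655 higher, 12634 lower; 3943 and 4292 without it). Under TGF-β against control the split was 818 higher and 5334 lower with poly-A and 1319 and 4408 with hybridization spikes, where 2726 and 3175 were called without them. Hybridization spikes gave 2146 and 7772 on withdrawal against TGF-β, and poly-A spikes 1967 and 3730 on withdrawal against control. Medians of all genes under poly-A and hybridization scaling were -0.30 and -0.17 for TGF-β against control, 0.12 and -0.25 for withdrawal against TGF-β, and -0.18 and -0.42 for withdrawal against control. The lost and regained genes numbered 4 in each alternative that kept all of them, and 3 without x, s and a probe sets, which removed Selenop. Those higher only after withdrawal numbered 2 without dim genes, which removed Enpep and Pamr1, and 4 otherwise. Differences from control on withdrawal ranged from 0.43 to 0.86 for Vnn1 and from 0.86 to 1.32 for Selenop, so 6 and not 7 of the 8 genes ended at least 1 above control with hybridization spikes. Among named list genes, 4 differences that had passed turned sign: Coasy (-0.0752), Atp7b (-0.0645) and Plin2 (-0.0779) on withdrawal against control with hybridization spikes, and Aox1 (-0.0314) under TGF-β with poly-A spikes. In 18 further cases a difference that had not passed turned sign. Some calls of named list genes were gained or lost, and some list counts changed, under the alternatives. Except where the removal of genes is named, the cause was not tested.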

Other observations

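Of 252 genes lost under TGF-β and regained, 31 (12.3%) ended at least 1 above control, among them Cp, Selenop and Sult1c2, while Vnn1 ended 0.81 above it. The 8 genes were picked for such values, so this is a description.

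Markers given here were chosen after their values were seen. Krt7, a simple epithelial keratin gene, averaged 5.53 on withdrawal, 9.71 under TGF-β and 10.22 in control, and fell by 4.18 on withdrawal against TGF-β (limma, adjusted p = 2.62e-06). Cdh1, Krt19 and Ocln went the other way on withdrawal, with differences of 3.49, 2.93 and 2.93. Of 9 fibroblast markers, 4 were higher and 0 lower under TGF-β in limma's test, and 1 was higher and 3 lower on withdrawal against TGF-β. The other 5 did not pass in either comparison. Col1a1 and Pdgfrb, from this list, lay below the receptor level in control. Col1a1, a fibrillar collagen gene, averaged 6.29 on withdrawal, 9.70 under TGF-β and 5.87 in control, so its TGF-β level was far above both others. Pdgfrb, a growth factor receptor gene of mesenchymal cells, averaged 9.91, 8.84 and 4.52 in the same groups and was 5.40 above control on withdrawal (limma, adjusted p = 2.22e-06).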
